A study of Mus musculus with 12 samples.

Results

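The skin kallikreins are a family of secreted serine proteases encoded side by side in one gene cluster, and 10 of them, Klk5, Klk6, Klk7, Klk8, Klk9, Klk10, Klk11, Klk12, Klk13 and Klk14, are described here in mouse dermis. They were chosen by gene symbol, 10 of the 55401 genes in the deposited table, with their levels in these samples already in view. Those levels and the comparisons drawn from them are therefore a description, and no count below is independent support for a change of the family. Of the 10 genes, 9 had a mean of at least 1 FPKM over the 12 samples and entered the statistical test with 14313 genes in all, while Klk12 did not. FPKM is the number of fragments scaled to transcript length and library size, so levels in FPKM can be compared between genes.

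RNA sequencing was done on dermis of C57BL/6 mice, 6 weeks old, in an experiment with wounds of equal size made in pairs. The groups were wild type (WT) on day 0, mice with both copies of Cthrc1 disrupted (Cthrc1-/-) on day 0, WT on day 7 and Cthrc1-/- on day 7, with 3 biological replicates each. The labels do not say whether day 0 tissue was intact skin. Cthrc1 encodes a secreted collagen triple helix repeat protein, and how its allele was made is not given in the sources used here, nor is whether each replicate was a separate mouse. P-values then measure only the spread between these samples, which may be partly technical.

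Kallikreins are made as inactive precursors, mainly by keratinocytes of the upper epidermis and its appendages, and are activated outside the cell by one another and by membrane-bound proteases. Klk5, Klk7 and Klk14 cut the desmosomal proteins that hold corneocytes together, so that the outermost cells are shed. They take part in filaggrin processing, and Klk5 and Klk14 in signalling through the protease-activated receptor F2rl1. The inhibitor Spink5 (LEKTI) holds Klk5, Klk7 and Klk14 in check. Its loss in people causes Netherton syndrome, a disease of excessive shedding and a leaky skin barrier.

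All 10 genes lie on chromosome 7 (GRCm38, GENCODE M21 annotation) between positions 43690418 and 43851181, a span of 160.764 kb, are protein-coding and are read from the plus strand. Their order is Klk14, Klk13, Klk12, Klk11, Klk10, Klk9, Klk8, Klk7, Klk6 and Klk5. Klk7 covers 43811294 to 43816359, Klk6 covers 43824499 to 43832030 and Klk13 covers 43712567 to 43727534. An antisense transcript, 2310002F09Rik (minus strand, 43695209 to 43797958), overlaps 7 of them, from Klk14 to Klk8, and its own level lay between 0 and 0.526 FPKM. Whether the counting used strand is not given in the sources used here, so reads of these 7 genes and of the antisense transcript may not have been told apart. The longest coding transcripts of 8 of the 10 genes had no match to another gene in a BLAST search, and the remaining match, between Klk11 and Klk12, covered 42 bases at 92.9% identity.

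The bases just before the annotated starts of 4 of the genes are shown because they stand for the different level patterns described below: Klk7 and Klk6 for the pair with the most alike levels, Klk13 for the gene with the widest range, and Klk11 for a gene that did not follow them. The sequences are RefSeq's for GRCm38.p6, plus strand, 5′ to 3′, and run from 250 bases before the RefSeq start to that start or to an earlier annotated start. Capitals mark matches to the GC box (GGGCGG, the site of Sp1-type factors) or to the C/EBP motif (TTGCNNAA), on either strand.
Klk7, chr7:43811044-43811293: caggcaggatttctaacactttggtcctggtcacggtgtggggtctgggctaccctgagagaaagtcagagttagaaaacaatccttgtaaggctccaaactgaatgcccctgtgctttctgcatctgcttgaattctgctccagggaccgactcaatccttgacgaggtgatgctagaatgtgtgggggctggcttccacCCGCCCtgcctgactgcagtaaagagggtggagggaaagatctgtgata
Klk6, chr7:43824294-43824437: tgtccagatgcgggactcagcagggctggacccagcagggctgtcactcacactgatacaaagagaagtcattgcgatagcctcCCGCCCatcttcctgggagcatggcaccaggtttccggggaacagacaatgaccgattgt
Klk13, chr7:43712317-43712566: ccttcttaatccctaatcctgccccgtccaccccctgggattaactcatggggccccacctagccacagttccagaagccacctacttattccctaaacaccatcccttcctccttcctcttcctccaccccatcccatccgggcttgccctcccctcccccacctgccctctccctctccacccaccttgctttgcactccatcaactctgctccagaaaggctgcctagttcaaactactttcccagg
Klk11, chr7:43774367-43774603: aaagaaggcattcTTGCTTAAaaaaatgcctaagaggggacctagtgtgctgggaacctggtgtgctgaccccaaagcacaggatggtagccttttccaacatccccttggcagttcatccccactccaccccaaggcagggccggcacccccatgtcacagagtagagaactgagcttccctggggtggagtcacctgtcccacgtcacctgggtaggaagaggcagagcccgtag

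RefSeq promoter windows were found for all 10 genes, 12 windows in all since Klk6 and Klk11 have a second start, and 5 motifs were searched on both strands over the 250 bases before each start. GC boxes were found in 4 windows of 3 genes (Klk6, Klk7 and Klk8), against 32.7% of all 32817 windows of that length. The C/EBP motif was found in both windows of Klk11, against 9.57% of all windows. The AP-1 motif (TGANTCA, 6.75% of all windows), the TATA box (TATAAA, 12.4%) and the grainyhead motif (AACNGGTT, 1.78%) had 0 matches in the 12 windows. These matches describe letters in these windows and not binding. The windows of Klk14, Klk9 and Klk5 and the second windows of Klk6 and Klk11 lie wholly past an earlier annotated start. The GC box of Klk8 and the nearer one in the first window of Klk6 also lie past such a start.

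Total counts lay between 48329668 and 76938132 per library. Cthrc1 was at 21.1 to 27.0 FPKM in WT on day 0, at 74.0 to 106 FPKM in WT on day 7 and at no more than 0.151 FPKM in the 6 Cthrc1-/- libraries, which matches their labels. Fibroblast markers (Col1a1, Col1a2, Dcn, Lum, Pdgfra and Col3a1) summed to 4814 to 6441 FPKM in WT on day 0, to 337 to 2386 FPKM in Cthrc1-/- on day 0, to 3521 to 5251 in WT on day 7 and to 2193 to 3447 in Cthrc1-/- on day 7. Epidermal keratinocytes are not cells of the dermis, although hair follicles reach into it. Basal keratinocyte markers (Krt5, Krt14, Trp63, Itga6, Itgb4 and Col17a1) summed to 5775 to 6800 FPKM in WT on day 0, and no keratinocyte marker was at 0 in any library. Some libraries stood apart from their groups: WT day 7 replicate 1 had neutrophil markers at 3849 FPKM against 27.3 and 491 in its group, and Cthrc1-/- day 0 replicates 1, 2 and 3 had hair follicle markers at 188, 4266 and 10552 FPKM. In bulk RNA, fewer cells of a type and less RNA per cell cannot be told apart.

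The family as a whole was at a like level in the 3 WT day 0 libraries and higher in most others. The summed level of the 10 genes was 109, 115 and 110 FPKM in WT on day 0 and 233, 417 and 261 FPKM in Cthrc1-/- on day 0. On day 7 it was 105, 282 and 310 FPKM in WT and 509, 318 and 222 FPKM in Cthrc1-/-. The Cthrc1-/- libraries of both days lay above every WT day 0 library, and WT day 7 replicate 1 lay below them.

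Klk7 was the gene with the highest mean FPKM of the 10 in each of the 4 groups, at 35.6 ± 2.80 in WT on day 0, 147 ± 56.3 in Cthrc1-/- on day 0, 103 ± 48.6 in WT on day 7 and 143 ± 51.1 in Cthrc1-/- on day 7 (SD, n = 3 each), and its range did not overlap that of the next gene in any group. Below it in WT on day 0 came Klk5, Klk10 and Klk11, whose neighbouring ranges overlapped, then Klk8, then Klk6 and Klk9, which overlapped, then Klk14, Klk13 and Klk12. In Cthrc1-/- on day 0 the next places went to Klk10 and Klk6, in WT on day 7 to Klk10 and Klk8, and in Cthrc1-/- on day 7 to Klk6 and Klk8, all with ranges that overlapped that of the gene ranked next below. Klk12 had the lowest mean in every group.

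The makeup of the family also differed between WT on day 0 and the other libraries. Klk6 made up 1.21 to 2.58% of the summed level in WT on day 0 and 6.09 to 17.4% in the other 9 libraries. Klk5 made up 16.5 to 23.0% in WT on day 0 and 6.34 to 12.1% elsewhere, and Klk11 made up 15.2 to 16.4% and 1.34 to 7.23%. Klk7 made up 30.4 to 35.1% in WT on day 0 and 38.9 to 52.0% elsewhere. The shares of these 4 genes in WT on day 0 did not overlap those in any other library.

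**Figure D1:**
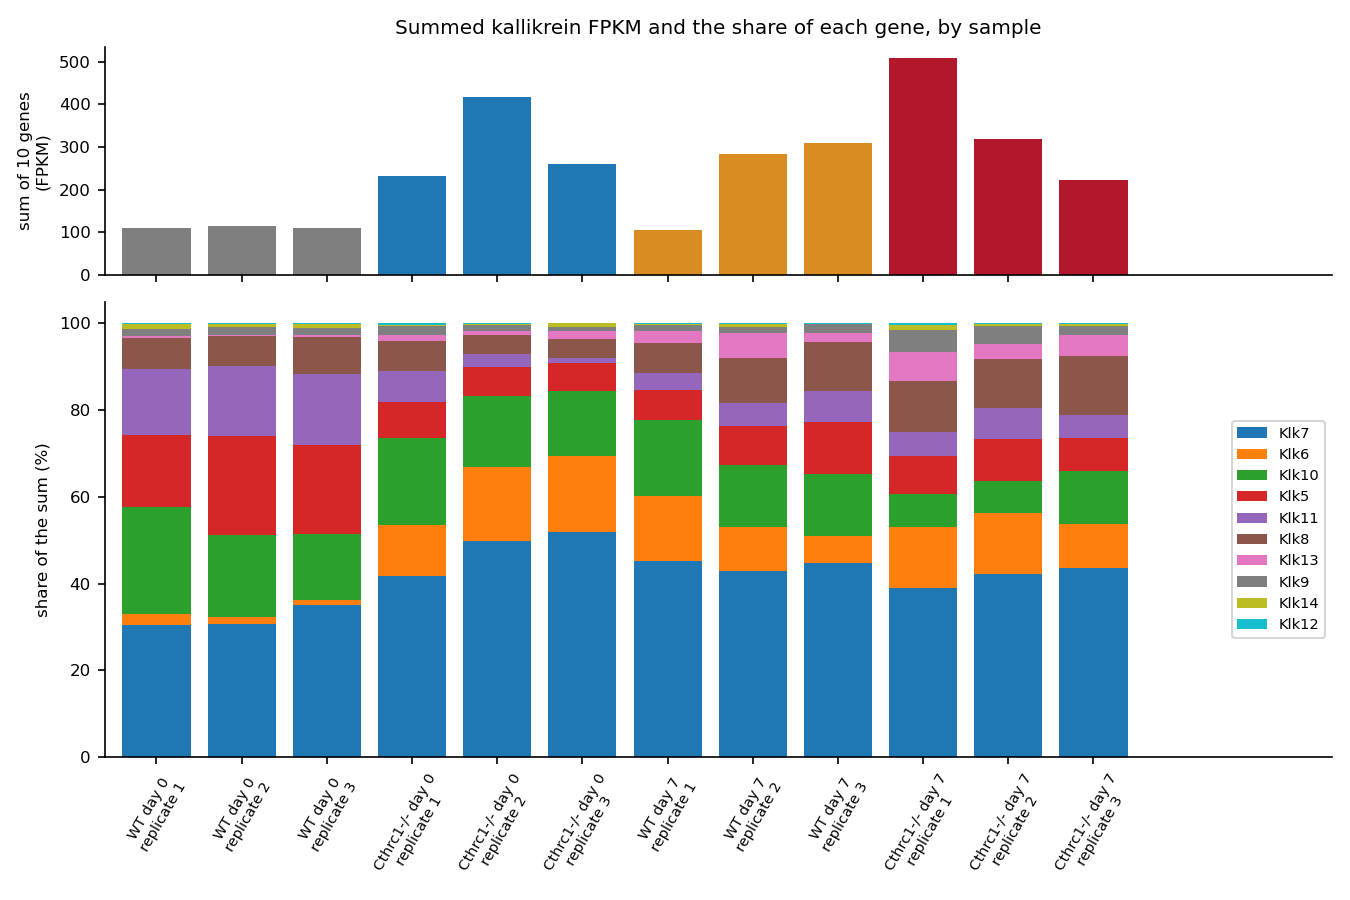
Summed level of the 10 kallikreins in FPKM in each of the 12 samples (top, bars coloured by group) and the percentage of that sum contributed by each gene (bottom, stacked bars). The 3 WT day 0 samples sit at 109 to 115 FPKM with a thin Klk6 layer, and WT day 7 replicate 1 sits at 105 FPKM with a thick one.

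Klk5, the trypsin-like protease that starts the activation cascade in the stratum corneum, was at 18.0, 26.4 and 22.6 FPKM in WT on day 0 and at 19.3, 27.9 and 16.5 FPKM in Cthrc1-/- on day 0. Its day 7 levels were 7.34, 25.7 and 37.5 FPKM in WT and 44.9, 30.6 and 16.9 FPKM in Cthrc1-/-. The 4 groups overlapped, and the 7.34 FPKM of WT day 7 replicate 1 was its lowest value.

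Klk7, the chymotrypsin-like protease that cuts corneodesmosin, was at 33.0, 35.2 and 38.6 FPKM in WT on day 0 and at 97.2, 208 and 136 FPKM in Cthrc1-/- on day 0. The day 7 libraries had 47.5, 121 and 139 FPKM in WT and 198, 134 and 97.0 FPKM in Cthrc1-/-. WT on day 0 lay below all 9 other libraries, and the other 3 groups overlapped.

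Klk14, a trypsin-like protease of the stratum corneum, was low throughout, at 1.22, 0.862 and 1.04 FPKM in WT on day 0, and at 0.880, 1.07 and 1.92 FPKM in Cthrc1-/- on day 0. On day 7 it was at 0.181, 1.75 and 0.245 FPKM in WT and at 6.01, 1.18 and 1.18 FPKM in Cthrc1-/-. The groups overlapped, and a single library, Cthrc1-/- day 7 replicate 1, held the high value.

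Klk6, a trypsin-like protease best known from the nervous system, was at 2.81, 1.82 and 1.33 FPKM in WT on day 0 and at 27.0, 70.8 and 45.5 FPKM in Cthrc1-/- on day 0. Its day 7 levels were 15.7, 28.7 and 18.9 FPKM in WT and 71.8, 45.0 and 22.3 FPKM in Cthrc1-/-. The lowest of the other 9 libraries, WT day 7 replicate 1, was above every WT day 0 library, and the remaining 3 groups overlapped.

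Klk8 (neuropsin), a trypsin-like protease made by neurons and keratinocytes, was at 7.92, 8.05 and 9.47 FPKM in WT on day 0 and at 16.6, 17.8 and 11.3 FPKM in Cthrc1-/- on day 0. The day 7 libraries had 7.20, 29.2 and 35.2 FPKM in WT and 60.3, 35.9 and 30.4 FPKM in Cthrc1-/-. The Cthrc1-/- libraries of day 7 lay above those of day 0, and WT day 7 replicate 1 lay below all 3 WT day 0 libraries.

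Klk13, a trypsin-like protease, was at 0.313, 0.303 and 0.377 FPKM in WT on day 0 and at 2.76, 3.68 and 4.90 FPKM in Cthrc1-/- on day 0. On day 7 it was at 2.78, 16.6 and 6.52 FPKM in WT and at 34.3, 10.9 and 10.6 FPKM in Cthrc1-/-. Cthrc1-/- on day 7 lay above Cthrc1-/- on day 0, and every library of the 3 other groups lay above WT on day 0.

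Klk9, a chymotrypsin-like member, was at 1.85, 1.98 and 1.87 FPKM in WT on day 0 and at 4.97, 5.79 and 2.41 FPKM in Cthrc1-/- on day 0. Its day 7 levels were 1.55, 3.99 and 6.30 FPKM in WT and 25.3, 13.2 and 4.72 FPKM in Cthrc1-/-. Within Cthrc1-/- on day 7 the highest library was 5.35 times the lowest.

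Klk10, whose human counterpart is also called NES1, was at 26.9, 21.7 and 16.6 FPKM in WT on day 0 and at 47.1, 68.0 and 39.2 FPKM in Cthrc1-/- on day 0. The day 7 libraries had 18.3, 39.8 and 44.4 FPKM in WT and 38.7, 23.7 and 27.1 FPKM in Cthrc1-/-. It was the one gene of the 10 whose Cthrc1-/- libraries were all lower on day 7 than on day 0. The margin was small, 38.7 against 39.2 FPKM between the nearest libraries, and edgeR did not call the change.

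Klk11 (hippostasin), a trypsin-like protease, was at 16.5, 18.4 and 18.0 FPKM in WT on day 0 and at 16.2, 13.4 and 3.50 FPKM in Cthrc1-/- on day 0. On day 7 it was at 4.11, 14.9 and 21.8 FPKM in WT and at 27.8, 23.0 and 11.7 FPKM in Cthrc1-/-. Its Cthrc1-/- day 0 libraries all lay below WT on day 0, the highest of them by a small margin.

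Klk12, a trypsin-like protease, was the least abundant, with 4 to 198 counts per library. It was at 0.213, 0.180 and 0.0480 FPKM in WT on day 0 and at 0.623, 0.751 and 0.0590 FPKM in Cthrc1-/- on day 0. Its day 7 levels were 0.179, 0.429 and 0.155 FPKM in WT and 2.09, 0.641 and 0.131 FPKM in Cthrc1-/-. The groups overlapped, and the gene was below the expression minimum of the test.

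**Figure D2:**
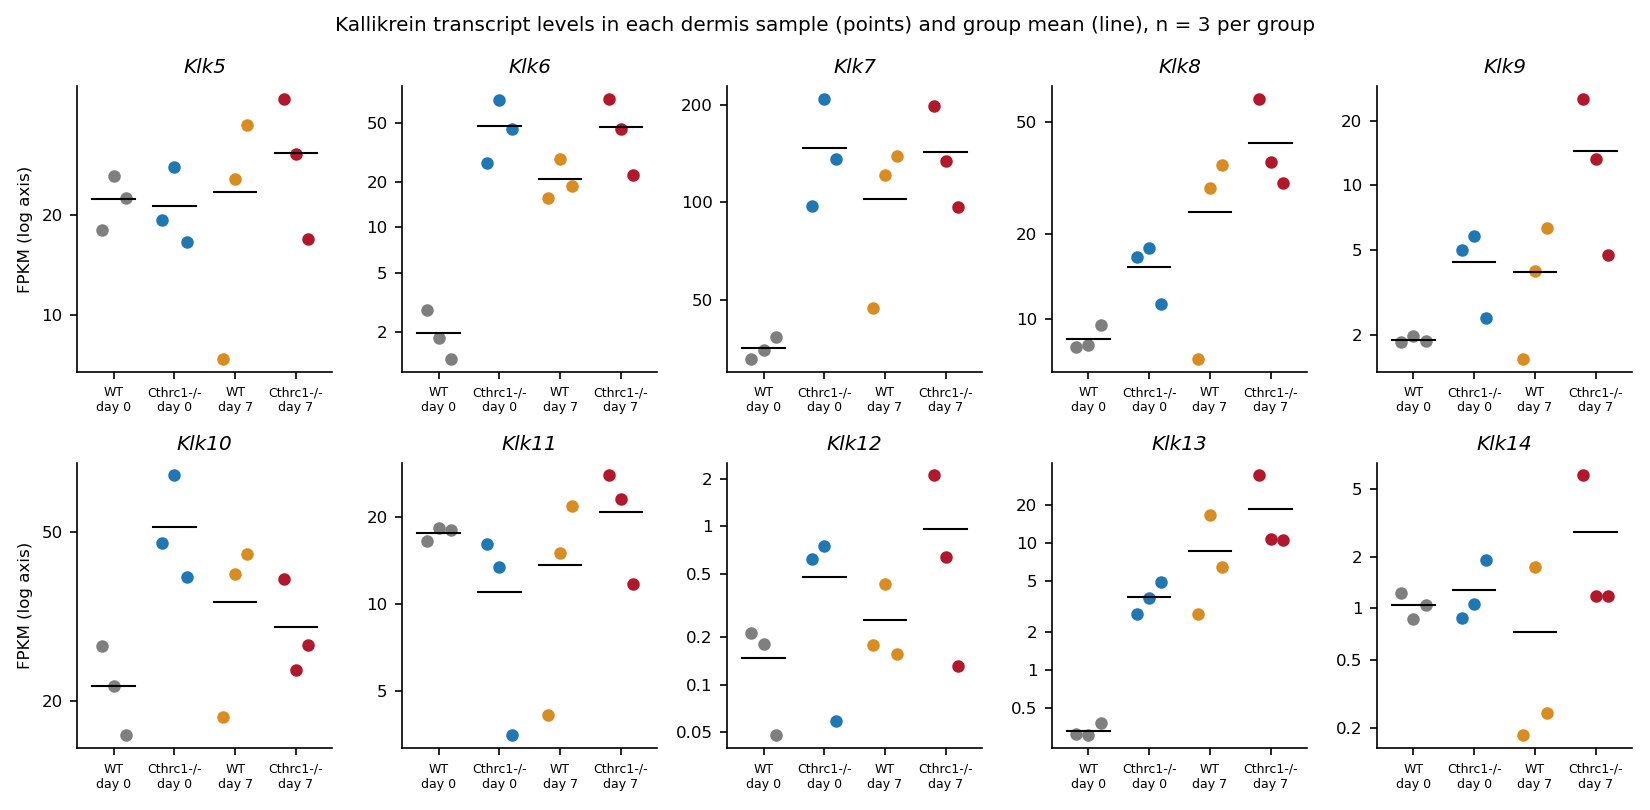
FPKM of each kallikrein (log axis, own scale per gene) in the 4 groups, with 1 point per sample and a line at the group mean. WT day 0 points of Klk6, Klk7 and Klk13 lie below all other points, while those of Klk5 and Klk14 lie within the spread of the other groups.

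Genotypes were compared on day 0 first. Klk6, Klk13 and Klk7 were higher in Cthrc1-/- and the other 6 genes tested did not pass the threshold. The log2 change was 4.48 for Klk6 (SE 0.54, edgeR adjusted p = 0.00941), a 22.3-fold difference in the fit, 3.37 for Klk13 (SE 0.66, edgeR adjusted p = 0.0307) and 1.94 for Klk7 (SE 0.40, edgeR adjusted p = 0.0329). Each was higher in 3 of 3 Cthrc1-/- libraries than in any WT library. Klk10 had a log2 change of 1.15 (SE 0.33, edgeR adjusted p = 0.0673), Klk9 of 1.12 (SE 0.61) and Klk8 of 0.75 (SE 0.46), and these 3 also had ranges that did not overlap. Klk14 stood at 0.18 (SE 0.86), Klk5 at -0.17 (SE 0.49) and Klk11 at -0.75 (SE 0.62).

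Of the 9 genes, 3 were called higher and 0 lower, beside 5.78% of all 14313 genes called in either direction and 3.51% called higher by edgeR. Levels did not overlap in the higher direction for 6 of the 9, beside 21.5% of all genes, and in the lower direction for Klk11, beside 19.8%. The median log2 change was 1.12 over the 9 genes and -0.05 over all genes. The genes were taken up with these values known, so nothing is read from the counts. The calls rested on few libraries: leaving out WT day 0 replicate 2 or replicate 3 ended all 3. The edgeR adjusted p for Klk6 was then 0.0583 and 0.0510, within a range of 0.00296 to 0.0583 over the 12 samples left out in turn. This loss was not particular to the kallikreins: calls over all genes fell from 827 to 18 in each of these fits. Leaving out WT day 0 replicate 1 or Cthrc1-/- day 0 replicate 2 or replicate 3 left 1 call, Klk6. Calls over all genes were below 827 there too. The log2 change of Klk6 lay between 4.04 and 4.80 over the 12 samples left out in turn. Klk7 was also not called when the day 0 samples were fitted alone (2 calls), nor Klk13 by limma on log2(FPKM + 1) (2 calls), whereas Klk10 was added by DESeq2 (4 calls). Over all genes, the day 0 samples alone and limma also gave fewer calls than the main fit, and DESeq2 gave more.

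Markers of keratinocyte states and of hair moved with this comparison. Of the 6 wound keratinocyte markers, 3 were higher in Cthrc1-/- on day 0 (Krt16, Krt17 and Sprr1b), and their summed level was 960 to 1056 FPKM in WT and 2319 to 3757 FPKM in Cthrc1-/-. The 5 hair follicle markers analysed (Krt25, Krt27, Krt71, Krt35 and Tchh) were all higher, with sums of 2.59 to 4.56 and 188 to 10552 FPKM, and Krt25 was at 0 in WT day 0 replicate 1. Of the 6 granular keratinocyte markers (Lor, Flg, Ivl, Cdsn, Hrnr and Casp14) 0 were called by edgeR, and they summed to 179 to 271 FPKM in WT and 257 to 393 FPKM in Cthrc1-/-. Suprabasal markers summed to 3096 to 3534 FPKM in WT and 884 to 2491 FPKM in Cthrc1-/-, with 0 of 6 called. Of the 6 fibroblast markers, 1 was lower (Col1a2). Across Cthrc1-/- day 0 replicates 1, 2 and 3, the wound keratinocyte sum was 2319, 3757 and 2522 FPKM and the granular sum 330, 393 and 257 FPKM. Klk6, Klk7 and these 2 sums were highest in replicate 2. The granular sum was lowest in replicate 3, and Klk6, Klk7 and the wound keratinocyte sum were lowest in replicate 1. Klk13 and the hair follicle sum were lowest in replicate 1 and highest in replicate 3. The fibroblast sum fell across replicates 1, 2 and 3, at 2386, 1296 and 337 FPKM. The part of these cells in the kallikrein levels was not tested.

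On day 7 the genotypes were not separated by any of the genes. Of the 9 genes, edgeR called 0, as did DESeq2 and limma, and 2 had an unadjusted p under 0.05, beside 0.021% of all genes called and 782 genes with such a p. Klk9 had a log2 change of 1.84 (SE 0.61, edgeR adjusted p = 0.907) and Klk6 of 1.08 (SE 0.47, edgeR adjusted p = 0.907), both higher in Cthrc1-/-. The log2 change was above 0 for 8 of the 9 genes, with a median of 0.80 against -0.01 over all genes, but the ranges overlapped for all 9, beside 6.46% of all genes that did not overlap in the higher direction. WT day 7 replicate 1 had the lowest level of its group for 9 of the 10 genes, and granular markers there were at 41.7 FPKM against 167 and 348 in the other WT day 7 libraries. Cthrc1-/- day 7 replicate 1 had the highest level of its group for all 10 genes. Leaving out either library lowered the log2 change of all 9 genes, and edgeR again called 0 of the 9. Without the WT library that of Klk5 turned from 0.37 to -0.05. Without the Cthrc1-/- library it also turned slightly negative. That of Klk9 then fell from 1.84 to 1.16, of Klk6 from 1.08 to 0.61 and of Klk13 from 1.07 to 0.27. Wound keratinocyte markers summed to 1448 to 3495 FPKM in WT and 2089 to 4176 FPKM in Cthrc1-/-, and hair follicle markers to 1489 to 3474 and 425 to 4710 FPKM, with 0 called in either list. Their part in the kallikrein levels was not tested.

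From day 0 to day 7 in WT, Klk13 and Klk6 rose. The log2 change of Klk13 was 4.46 (SE 0.69, edgeR adjusted p = 0.00631), a 22.1-fold difference in the fit, and that of Klk6 was 3.21 (SE 0.51, edgeR adjusted p = 0.00645), a 9.25-fold difference, each in 3 of 3 libraries. Klk7 missed the threshold at 1.30 (SE 0.39, edgeR adjusted p = 0.0525) with no overlap. It was called under total-count scaling, with a minimum of 5 FPKM and by DESeq2. DESeq2 called more of all genes than edgeR for genotype on either day. Klk8 stood at 1.25 (SE 0.46, edgeR adjusted p = 0.0936), with overlap. Klk9 stood at 0.82, Klk10 at 0.44, Klk5 at -0.16, Klk11 at -0.61 and Klk14 at -0.74, with SEs of 0.33 to 0.87.

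Thus 2 of 9 genes were called higher, beside 13.1% of all genes called in either direction and 6.04% called higher, and 3 of 9 did not overlap in the higher direction, beside 29.8% of all genes. The median log2 change was 0.82 over the 9 genes and -0.0019 over all genes. Leaving out WT day 7 replicate 1 raised the calls from 2 to 4 by adding Klk7 (edgeR adjusted p = 0.0175) and Klk8 (edgeR adjusted p = 0.0118), for which the edgeR adjusted p over the 12 samples left out in turn ranged up to 0.143 and 0.224. Without WT day 7 replicate 1, fewer of all genes were called for day in WT than in the main fit, but more for genotype on day 0. Klk7 was also called without Cthrc1-/- day 0 replicate 1 or 3. In both of these fits, more of all genes were called for day in WT than in the main fit. Klk6 and Klk13 were called whichever sample was left out, with an edgeR adjusted p of at most 0.0339 and 0.0329. The log2 change of Klk13 was 3.58 without WT day 7 replicate 2, the library with its highest WT level, and 4.97 without WT day 7 replicate 1. With limma on the log2(FPKM + 1) scale, which understates the change of low genes, it was 2.58. This comparison and the genotype comparison on day 0 share the WT day 0 libraries, so genes common to both are not separate evidence.

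Several marker lists also differed between the days in WT. Wound keratinocyte markers were higher on day 7 for 4 of 6 (Krt6b, Krt16, Sprr1b and S100a8), while Krt17 was not called (log2 change -0.36, edgeR adjusted p = 0.314), with sums of 960 to 1056 FPKM on day 0 and 1448 to 3495 FPKM on day 7. In WT day 7 replicate 1, S100a8 gave 1210 of the 2136 FPKM of the wound keratinocyte sum. This library also had the high neutrophil markers. Hair follicle markers were higher for 5 of 5, with sums of 2.59 to 4.56 and 1489 to 3474 FPKM. Neutrophil markers were higher for 4 of the 5 tested (S100a9, Cxcr2, Csf3r and Mmp8), with sums of 5.00 to 9.98 and 27.3 to 3849 FPKM. Basal keratinocyte markers were lower for 2 of 6 (Trp63 and Itgb4), suprabasal markers for 1 of 6 (Sbsn) and sebaceous gland markers for 3 of 6 (Scd1, Mgst1 and Awat1). The part of these cells in the kallikrein levels was not tested.

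From day 0 to day 7 in Cthrc1-/-, edgeR called 0 of 9 genes, beside 1.46% of all genes. An unadjusted p under 0.05 was found for 4 of the 9, beside 2596 of all 14313 genes. DESeq2, which called more of all genes than edgeR for genotype on either day, called 1, Klk13, and limma called 0. Klk13 had a log2 change of 2.16 (SE 0.62, edgeR adjusted p = 0.103), Klk9 of 1.54 (SE 0.61, edgeR adjusted p = 0.217), Klk8 of 1.31 (SE 0.46, edgeR adjusted p = 0.172) and Klk10 of -0.95 (SE 0.33, edgeR adjusted p = 0.165). Klk6 stood at -0.19 (SE 0.46) and Klk7 at -0.19 (SE 0.38). Levels did not overlap in the higher direction for Klk8 and Klk13, beside 21.5% of all genes, and in the lower direction for Klk10, beside 4.99%. Without WT day 7 replicate 1, which enters this comparison through the shared estimate of spread, Klk8 (edgeR adjusted p = 0.0235) and Klk13 (edgeR adjusted p = 0.0413) were called, against highest values of 0.425 and 0.318 over the 12 samples left out in turn. Leaving out that WT library also raised the calls over all genes for genotype on day 0, so gained calls were not particular to the kallikreins. None of the keratinocyte, hair follicle or neutrophil markers was called by edgeR between these days in the main fit.

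**Figure D3:**
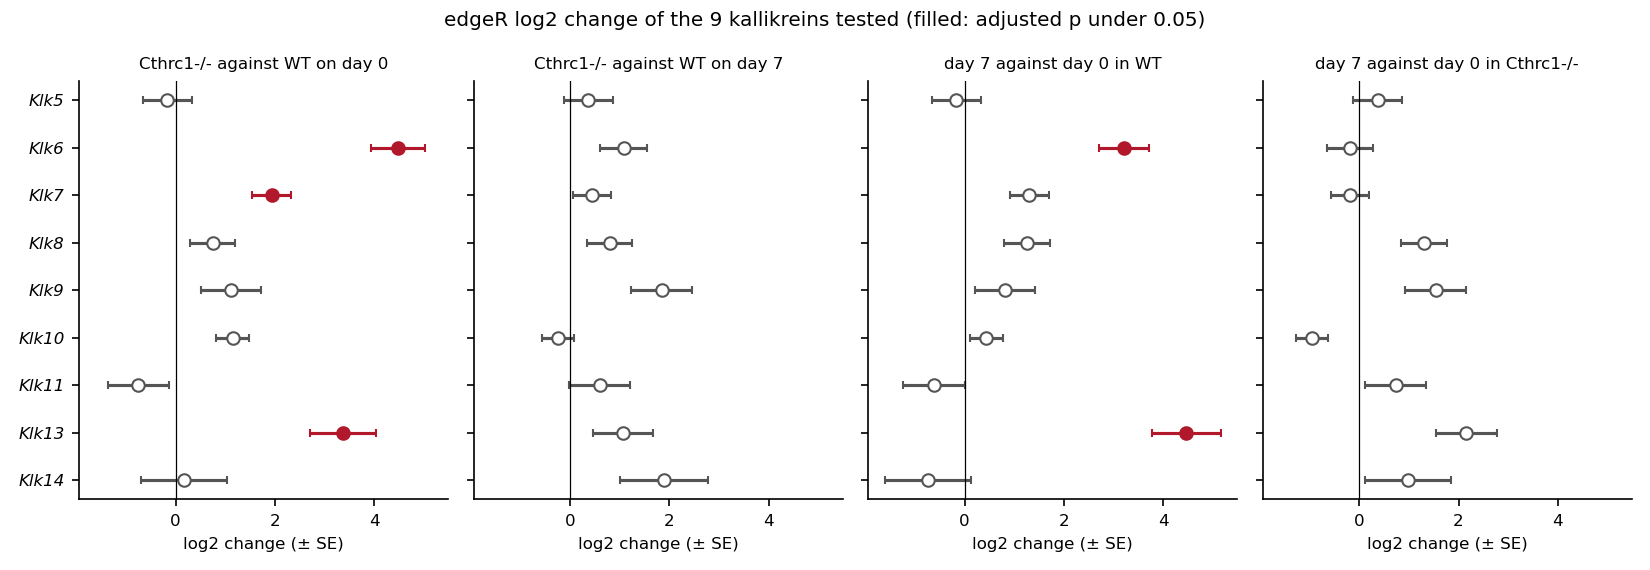
Log2 change (point) with its standard error (bar) of the 9 kallikreins tested, in 4 comparisons fitted together by edgeR; filled points have an adjusted p under 0.05. Filled points are Klk6, Klk7 and Klk13 for genotype on day 0 and Klk6 and Klk13 for day in WT, and the points for genotype on day 7 are all open.

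Whether the change with day differed between genotypes was tested directly as an interaction. EdgeR called 0 of 9 genes, beside 0.014% of all genes. An unadjusted p under 0.05 was found for 4 of the 9, beside 2164 of all 14313 genes. Limma called 0. DESeq2, which called more of all genes than edgeR for genotype on either day, called 1, Klk6. The interaction was -3.40 on the log2 scale for Klk6 (SE 0.68, unadjusted p = 0.000488, edgeR adjusted p = 0.142), -2.31 for Klk13 (SE 0.86), -1.50 for Klk7 (SE 0.54) and -1.39 for Klk10 (SE 0.46), the negative sign meaning a smaller rise or a larger fall in Cthrc1-/-. Leaving out Cthrc1-/- day 0 replicate 1 gave Klk6 an edgeR adjusted p of 0.0448, the lowest of a range up to 0.373. The other 5 genes had values from 0.05 to 1.71. The interaction uses all 12 libraries and so shares them with every comparison above.

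**Figure D4:**
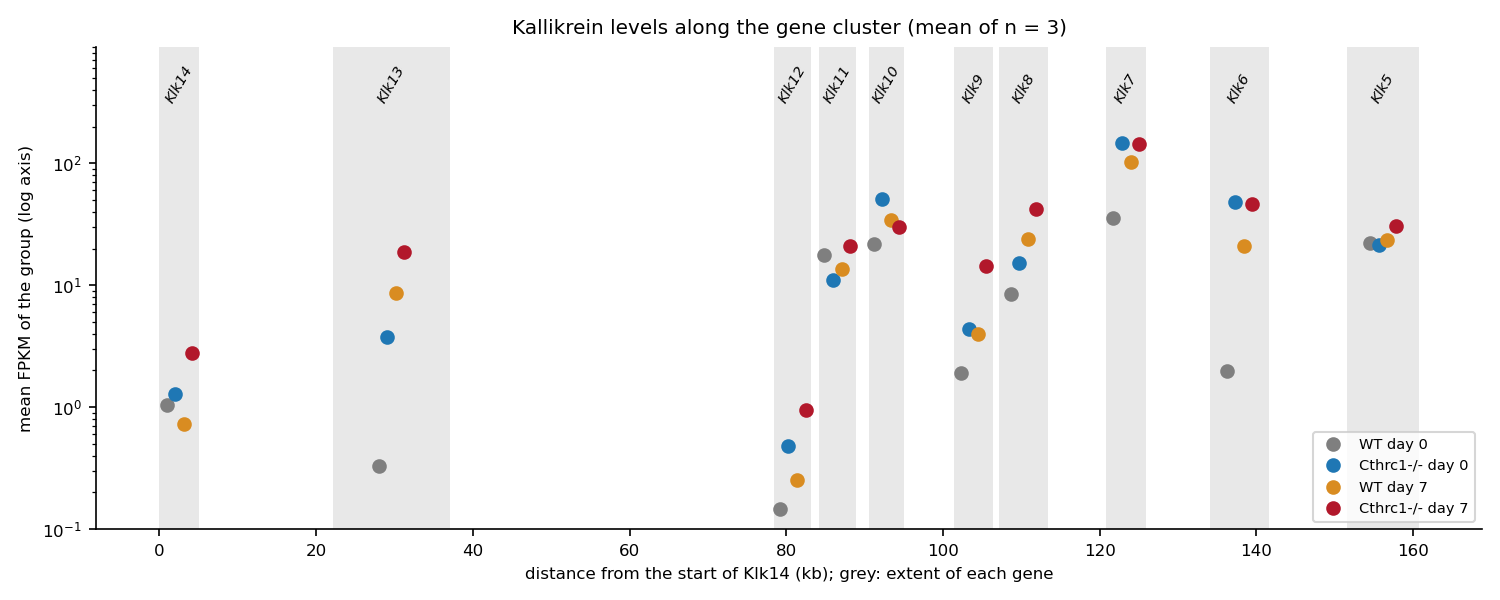
Mean FPKM of each group (points, log axis, n = 3) against the distance along the gene cluster in kb from the start of Klk14, with grey bands for the extent of each gene. Klk6 and Klk5 are neighbours, yet the WT day 0 mean of Klk6 (1.99 FPKM) lies far below its other groups and that of Klk5 (22.3 FPKM) does not.

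Neighbours in the cluster did not all share one pattern. Klk6 lies between Klk7 and Klk5, and over the 12 samples the Pearson correlation of log2(FPKM + 1) was 0.93 between Klk6 and Klk7 and 0.22 between Klk6 and Klk5. Klk8 and Klk9, which are also neighbours, had the next highest value (0.91). Other close pairs were Klk8 and Klk13 (0.89), Klk6 and Klk13 (0.82) and Klk5 and Klk11 (0.81). The lowest value was between Klk6 and Klk11 (-0.11). These correlations run over 12 samples that share groups and libraries, and describe these samples.

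**Figure D5:**
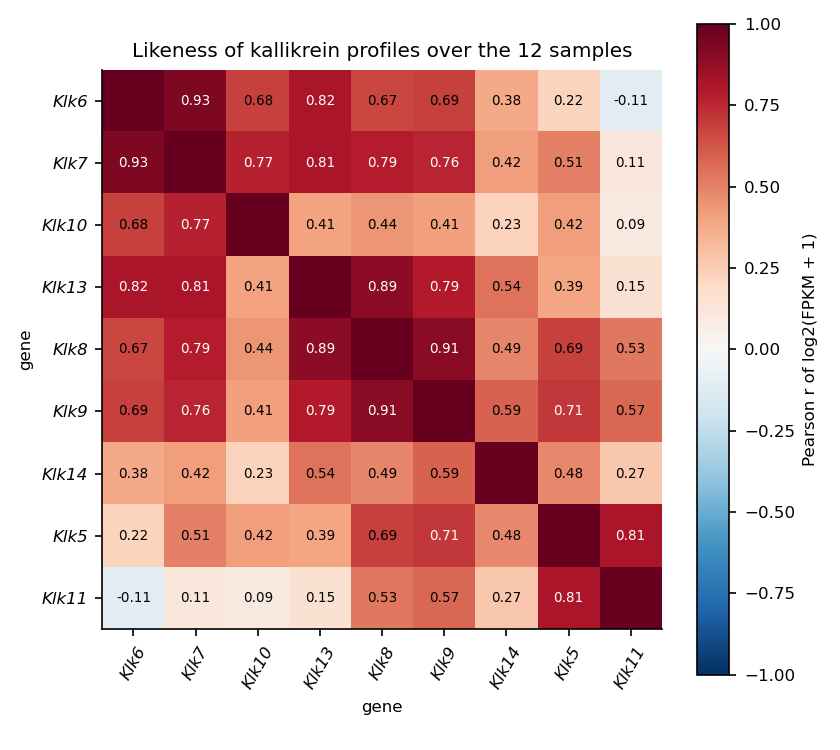
Pearson r of log2(FPKM + 1) over the 12 samples for each pair of the 9 kallikreins with a mean of at least 1 FPKM; red is positive and blue negative. Klk6, Klk7 and Klk13 form a block at 0.81 to 0.93, and Klk5 and Klk11 pair at 0.81 but stay at or below 0.51 with Klk6 and Klk7.

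The non-kallikrein genes most like each member, among 12694 genes compared by the same measure over the 12 samples and by a rule that passes over placeholder symbols, were as follows. For Klk7 the nearest was Cnfn, a cornified envelope gene (r = 0.96). For Klk5 they were Aloxe3 (0.95) and Abca12 (0.93), which act in the lipid barrier, and Hal (0.93), the histidase of the stratum corneum. For Klk9 they included Il1f8 (0.95), an interleukin-1 family cytokine, and Flg (0.94), which encodes filaggrin. For Klk11 the nearest was Krtdap, a keratinocyte differentiation gene (0.98), and for Klk13 they were Rbp2 (0.98), a retinol-binding protein, and Csta1 (0.97), a cysteine protease inhibitor. Those of Klk6 were Hist1h2bk, Pla2g4e and Sfrp1 (0.94 to 0.95), those of Klk8 were Glo1, Ggct and Snai2 (0.95 to 0.96), and those of Klk10 were Osbpl3, Selenot and Lmtk2 (0.90 to 0.91). Klk14 had no near match, with Mtf2 first at 0.84.

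Among the inhibitors of kallikreins (Spink5, Spink6, Slpi, A2ml1 and Serpina12), 3 of 5 were tested. Spink5 was at 89.4, 91.3 and 86.0 FPKM in WT on day 0 and at 5.19, 16.9 and 11.9 FPKM in WT on day 7, and it fell by 3.19 on the log2 scale (SE 0.61, edgeR adjusted p = 0.0118). In Cthrc1-/- it was at 67.0, 50.4 and 19.3 FPKM on day 0 and at 31.2, 17.9 and 8.42 FPKM on day 7, and edgeR called it in none of the other 4 comparisons. In WT each of Spink5, Klk6 and Klk13 separated the days, so their opposite directions describe the groups and not a link between libraries. Within WT on day 7 all of them were lowest in replicate 1 and highest in replicate 2. Slpi, a secreted inhibitor of serine proteases also made by neutrophils, rose by 5.71 in WT between the days (SE 1.33, edgeR adjusted p = 0.0229), at 151, 11.7 and 2.28 FPKM on day 7 against 0.616 to 1.23 FPKM on day 0, and its high value was in WT day 7 replicate 1, the library with the high neutrophil markers. Without that library its log2 change was 2.68 (edgeR adjusted p = 0.0287). Its edgeR adjusted p ranged from 0.00969 to 0.0898 over the 12 samples left out in turn and was over 0.05 when WT day 0 replicate 1, 2 or 3 was left out. Calls over all genes were also fewer than in the main fit when any of these was left out. Spink5 was called whichever sample was left out. On day 0 the inhibitors went both ways in Cthrc1-/- against WT, none of them called by edgeR (adjusted p 0.175 to 0.355): Slpi had a log2 change of 2.59, at 4.82 to 9.04 FPKM in Cthrc1-/- and 0.616 to 1.23 FPKM in WT, Spink5 of -1.04 and Serpina12 of -0.84. Serpina12, which encodes the Klk7 inhibitor vaspin, had a log2 change of -1.51 between days in WT (edgeR adjusted p = 0.105).

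Of the activating membrane proteases and their inhibitors (St14, Prss8, Mep1a, Mep1b, Spint1 and Spint2), 4 of 6 were tested. Prss8 (prostasin) was higher in Cthrc1-/- on day 0, at 7.38, 12.8 and 13.0 FPKM against 3.66, 4.33 and 4.29 FPKM in WT, a log2 change of 1.31 (SE 0.28, edgeR adjusted p = 0.0359). St14 (matriptase) had a log2 change of 1.77 (SE 0.47, edgeR adjusted p = 0.0551) and Spint1, its inhibitor, of 1.62 (SE 0.49, edgeR adjusted p = 0.0746). Prss8 was not called without WT day 0 replicate 1, 2 or 3, without Cthrc1-/- day 0 replicate 2 or 3, without WT day 7 replicate 2 or without Cthrc1-/- day 7 replicate 1, with an edgeR adjusted p of 0.0131 to 0.119 over the 12 samples left out in turn. In each fit that lost Prss8, calls over all genes were also fewer than in the main fit. None of the 4 genes was called by edgeR in the other 4 comparisons. Mep1a and Mep1b were at or near 0.

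Of the substrates and the receptor (Cdsn, Dsg1a, Dsg1b, Dsg1c, Dsc1, Flg, Camp and F2rl1), 6 of 8 were tested and edgeR called 0 in each of the 5 comparisons. Flg had the largest log2 change of the 6 on day 0, 2.66 in Cthrc1-/- against WT (SE 0.85, edgeR adjusted p = 0.0844). Cdsn, which encodes corneodesmosin, stood at -0.12 (SE 0.41) and Dsg1a, a desmoglein, at -0.52 (SE 0.40) in that comparison. F2rl1 was between 16.9 and 24.9 FPKM in all 12 libraries. The median log2 change on day 0 was -0.17 over the 6 substrates and receptor genes, beside -0.05 over all genes. Over the proteases St14 and Prss8 and the inhibitors Spint1 and Spint2 together it was 1.46.

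The other kallikrein-family genes were nearly silent. Of 27 with a Klk symbol outside the 10, 11 of them pseudogenes, 18 had 0 counts in all 12 libraries and none reached a mean of 1 FPKM. Klk1, the tissue kallikrein, was at 1.34, 1.75 and 0.453 FPKM in WT on day 0 and at no more than 0.375 FPKM in the other 9 libraries, and the highest value outside Klk1 was 0.998 FPKM, for Klk15 in Cthrc1-/- day 0 replicate 2.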

How the data were processed

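Poly(A) RNA of 12 dermis samples was made into strand-specific paired-end libraries with molecular identifiers in the adapters, per the labels' protocols. The submitters' processing notes name cutadapt 1.9, HISAT2 2.0.4, UMI-tools, StringTie 1.3.4d, DESeq2, edgeR and GRCm38, without their roles. The deposited table holds whole-number counts and FPKM values made by the authors. Whether counts were collapsed on identifiers or used strand is not given in the sources used here. Genes with a count of 0 carry an FPKM of 0.0001, taken as 0. Counts at multiples of 4 are overrepresented, with 3.16 to 4.05 times as many genes at 4 as at 3 and 5, so low counts are coarse.

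Groups came from the sample titles. All 12 samples entered 1 edgeR 4.0.16 quasi-likelihood fit (TMM, two-sided, R 4.3.3) over the 14313 genes whose mean FPKM was at least 1. P-values were adjusted by Benjamini-Hochberg over these genes, and a call is an adjusted p under 0.05. The fit was tested on simulated counts with the same spread set for every gene, so that test does not cover the uneven spread of these samples. Alternatives were DESeq2 1.42.0, limma 3.58.1 on log2(FPKM + 1) and log2(FPKM + 0.1), total-count scaling, other filters, a replicate block, the compared groups alone, counts divided by 4, and leaving out each sample. Named genes are the 10 members, 3 pathway lists, cell type marker lists, Cthrc1, and the 3 genes most like each tested member by Pearson correlation, passing over placeholder symbols. Klk1, Klk15 and 2310002F09Rik were named after their values were seen. Symbols came from GENCODE M21, which named 55141 of the 55401 gene IDs. Transcripts were compared with BLAST 2.17.0. The members and lists were chosen with earlier results of these data known.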

Additional observations from a re-analysis of the deposited data

How the results depend on the processing

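With DESeq2, 4 of the 9 genes were called for day in WT (Klk6, Klk7, Klk8 and Klk13; 2 by edgeR), 1 for day in Cthrc1-/- (Klk13; 0 by edgeR) and 1 for the interaction (Klk6; 0 by edgeR). Total-count scaling and a minimum of 5 FPKM each gave 3 for day in WT, adding Klk7. Over the 12 samples left out in turn, the genes called ranged from 0 to 4 for genotype on day 0, from 2 to 4 for day in WT, from 0 to 2 for day in Cthrc1-/- and from 0 to 1 for the interaction, and were 0 throughout for genotype on day 7. Under total-count scaling the log2 change of Klk5 between days in WT was 0.086 (-0.16 with TMM) and the interaction of Klk8 was -0.015 (0.05 with TMM), which was -0.0060 with DESeq2. Some log2 changes that were not called turned in sign when a sample was left out: for genotype on day 0, Klk5 ranged from -0.44 to 0.020 and Klk14 from -0.15 to 0.36. For genotype on day 7 Klk5 ranged from -0.047 to 0.82, and for day in WT from -0.62 to 0.34. For day in Cthrc1-/-, Klk5 ranged from -0.0022 to 0.67, Klk6 from -0.65 to 0.24, Klk7 from -0.50 to 0.18 and Klk14 from -0.26 to 1.35, and the interaction of Klk8 ranged from -0.42 to 0.39. The cause was not tested.

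For same-numbered samples, deviations from the group means correlated between -0.23 and 0.43, the highest for replicate 3 between days in Cthrc1-/-. These values do not settle whether such samples shared more than a number. With the replicate block the counts stayed at 3, 0, 2, 0 and 0 of 9 genes for the 5 comparisons in the order of the report, while 883, 2, 1467, 291 and 1 of all genes were called (827, 3, 1880, 209 and 2 without it). Klk14 has no value under a minimum of 5 FPKM, and the interaction none from the compared groups alone. Klk12, with 4 to 198 counts, was not called in any comparison with no filter on FPKM. The alternatives for Spink5, Slpi and Prss8 were chosen after seeing the data: Slpi was not called with the replicate block (edgeR adjusted p = 0.0547), with limma on log2(FPKM + 1) or with the compared groups alone, and Prss8 was not called with no filter or with the compared groups alone.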
